A study of Mus musculus with 28 samples.

Results

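Oligodendrocyte lineage transcription factors are the DNA-binding proteins that specify the cells that make myelin and drive them through differentiation. The 8 genes described here, *Olig1*, *Olig2*, *Sox10*, *Sox8*, *Myrf*, *Nkx6-2*, *Nkx2-2* and *Zfp488*, were chosen by name as members of this family, by a rule that uses no measured value but with earlier results of these data known. They were 8 of the 29878 genes listed for each library and 8 of the 14979 genes that passed the filter on low counts, so that no member was lost. RNA-seq of dissected brain tissue was carried out in 28 libraries from mice of 3 genotypes at 2 to 3 months of age. The genotypes were wild-type (WT), heterozygous (Het) and homozygous knockout (*Hdc*-KO) for *Hdc*, the gene of histidine decarboxylase, which makes histamine, in a line backcrossed to C57Bl/6. The dorsal striatum had 2 WT, 3 Het and 2 *Hdc*-KO libraries, and the ventral striatum had 3, 3 and 2. The motor cortex had 1 WT, 2 Het and 2 *Hdc*-KO libraries, and the hypothalamus had 3, 3 and 2. The allele is carried by every cell of the animal, so the groups do not separate an effect in oligodendrocytes from one in other cells. The labels do not say that libraries of a group came from separate animals, and p-values then measure the spread between these libraries, which may be technical in part.

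Libraries held 3536802 to 5150280 counts on genes, and the members had 1 to 573 counts each per library. Levels are given as CPM, the count divided by the library's total and brought to a common depth, scaled by the trimmed mean of M values (TMM). Levels of different genes are compared only as CPM per kilobase of exon, and ratios of their counts only between regions. *Hdc* itself had 0 to 6 counts in libraries labelled WT outside the hypothalamus. In the same 3 regions it had 17 to 33 counts in those labelled Het and 29 to 51 in those labelled KO. In the hypothalamus it had 79 to 111 counts in libraries labelled WT, 78 to 117 in those labelled Het and 54 to 66 in those labelled KO. Counts over the whole gene do not separate its parts, so they do not check the labels. Why they were higher in libraries labelled Het and KO than in WT outside the hypothalamus was not tested. Every KO or WT library below is a library labelled so. The 9 spiny neuron genes summed to 7423 to 10650 CPM in the dorsal striatum. In the ventral striatum they summed to 1741 and 4068 CPM in the *Hdc*-KO libraries, 2027 to 3514 CPM in WT and 2892 to 3064 CPM in Het. The part of this spread in the comparisons was not tested. The 8 cortical excitatory neuron genes summed to 2099 to 2281 CPM in the motor cortex. The 8 hypothalamic genes summed to 165.8 to 282.2 CPM in the hypothalamus and to at most 7.59 CPM elsewhere. Some libraries stood apart in markers of other tissue. *Hdc*-KO library 8 of the dorsal striatum had 2930 CPM over 12 choroid plexus genes, against 4.80 to 73.8 CPM in the other dorsal striatal libraries, and 7 and 6 of these genes were at 0 in the WT libraries. *Hdc*-KO library 8 of the hypothalamus had 400 CPM over the 8 cortical excitatory neuron genes, against 54.2 to 77.4 CPM in the other hypothalamic libraries. *Hdc*-KO library 7 of the dorsal striatum had 434.9 CPM over the cortical excitatory neuron genes, against 104.6 to 232.1 CPM in the others. *Hdc*-KO library 8 of the ventral striatum had 192.5 CPM over 6 Schwann cell genes, against a median of 15.1 CPM in that region.

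Oligodendrocytes arise from precursor cells that persist in the adult brain. *Olig2* and *Olig1* encode basic helix-loop-helix factors, of which OLIG2 specifies the lineage and both are kept through it. SOX10 and its relative SOX8 are SoxE proteins that act together in differentiation, and SOX10 with OLIG2 turns on *Myrf*. MYRF, a membrane-bound factor that releases its DNA-binding part by self-cleavage, is required for the expression of myelin genes. The homeodomain proteins NKX2-2 and NKX6-2 and the zinc finger protein ZFP488 take part in the timing of differentiation, and NKX6-2 also in the organisation of myelinated axons. In tissue RNA, fewer cells of a type and less RNA per cell cannot be told apart.

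The members lie on 7 chromosomes of the mouse assembly GRCm38. *Olig2* (ENSMUSG00000039830, chr16:91225457-91228677, plus strand) and *Olig1* (ENSMUSG00000046160, chr16:91269772-91271933, plus strand) are neighbours on chromosome 16, with 41094 bases between them. The annotated *Olig1* is 1 uninterrupted exon. *Sox10* (ENSMUSG00000033006) lies at chr15:79154908-79165240, *Sox8* (ENSMUSG00000024176) at chr17:25565892-25570686 and *Myrf* (ENSMUSG00000036098), with 26 exon blocks, at chr19:10208272-10240748, all on the minus strand. *Nkx6-2* (ENSMUSG00000041309) lies at chr7:139579376-139582797, *Nkx2-2* (ENSMUSG00000027434) at chr2:147177546-147194243 and *Zfp488* (ENSMUSG00000044519) at chr14:33967070-33978764, also on the minus strand. Exons of 4 members share bases with a gene on the opposite strand, and whether the counting used strand was not stated. *Nkx6-2* shares 246 exonic bases with *Inpp5a*, which had 146 to 448 counts per library, so the low *Nkx6-2* counts are uncertain. *Olig1* shares 157 bases with *Gm15966*, which had at most 1 count in any library. The genes that share exonic bases with *Sox8* (329 bases) and *Nkx2-2* (278 bases) had no entry among the genes counted, so no counts can be set beside these members.

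The promoters of *Olig2* and *Sox8* are shown because the order of dorsal striatum and hypothalamus differs between these genes, as described below. The sequences come from RefSeq on GRCm38.p6, where 5 of the 8 members matched an entry. They end at the base before the annotated start of the gene and run 5′ to 3′ on the gene's own strand. Capitals mark the matches found in a search of both strands.

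*Olig2* (chr16:91225300-91225456, plus strand): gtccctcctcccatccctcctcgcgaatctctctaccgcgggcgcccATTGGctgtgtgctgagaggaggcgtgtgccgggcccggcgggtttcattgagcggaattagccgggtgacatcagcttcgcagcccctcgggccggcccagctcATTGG
*Sox8* (chr17:25570687-25570936, minus strand): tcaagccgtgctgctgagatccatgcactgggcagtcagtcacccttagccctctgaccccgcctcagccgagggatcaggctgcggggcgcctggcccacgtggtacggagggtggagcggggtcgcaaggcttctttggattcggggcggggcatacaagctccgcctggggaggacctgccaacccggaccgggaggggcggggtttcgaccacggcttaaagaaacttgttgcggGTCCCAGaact

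The motifs searched were the E-boxes CAGCTG and CATCTG, the SOX motifs ACAAAG and ACAATG, the NKX2 motif CACTTNA, the homeodomain core TAATTA, the MYRF motif CTGGNAC and the CCAAT box. The *Olig2* window of 157 bases held 2 CCAAT boxes, both on the opposite strand, that began 110 and 5 bases before the start. A CCAAT box was present in 21% of 32851 promoter windows of that length. The *Sox8* window of 250 bases held 1 MYRF motif on the opposite strand, 11 bases before the start, and 16.1% of windows of that length held one. None of the other motifs was found in either window. Both windows were rich in G and C, with 66.9% for *Olig2* and 65.6% for *Sox8* against a median of 52.4% over all promoters. A match describes letters only.

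Across the regions, the mean level of all 8 members was lowest in the motor cortex, and the order among the remaining 3 regions differed from gene to gene. Of 48 differences between pairs of regions (8 genes in 6 pairs), 29 were called at an adjusted p-value under 0.05 by edgeR's likelihood ratio test with Benjamini-Hochberg adjustment over all genes. Each region's value weighted its 3 genotypes equally, and differences are log2 values. Regions differed in a large share of all genes, so that counts of members are set beside that share. Between dorsal and ventral striatum 5 of the 8 members were called, all lower in the dorsal striatum, against 29% of all genes (14.4% lower). Between dorsal striatum and motor cortex 5 members were called, all higher in the dorsal striatum, against 43.4% of all genes (21.4% higher). Between dorsal striatum and hypothalamus 5 members were called, 4 lower and 1 higher in the dorsal striatum, against 56.1% of all genes (30.7% lower and 25.5% higher). In the ventral striatum 7 members were higher than in the motor cortex (43.7% of all genes called, 22.2% higher), and 1 was higher than in the hypothalamus (43.6% called, 19.7% higher). Between motor cortex and hypothalamus 6 members were called, all lower in the motor cortex (48.2% of all genes called, 25.4% lower). Every library of the dorsal striatum was above every motor cortex library for 3 members (11.8% of all genes), and every library of the ventral striatum for 6 (10.5%). The motor cortex was wholly below the hypothalamus for 6 members (14.9% of all genes). The dorsal striatum was wholly below the hypothalamus for 2 (14.8%) and wholly above it for 1 (13.1%), and the ventral striatum wholly above it for 1 (7.18%). *Olig1* and *Olig2* were called in 5 of the 6 pairs, *Sox10*, *Sox8*, *Nkx6-2* and *Nkx2-2* in 4, *Myrf* in 3 and *Zfp488* in 0. When libraries were scaled by their size alone, the median of all genes moved to -0.41 between dorsal striatum and hypothalamus, -0.28 between motor cortex and hypothalamus, -0.24 between ventral striatum and hypothalamus and -0.17 between dorsal and ventral striatum, while it was at -0.09 between dorsal striatum and motor cortex. Of the genes called between dorsal striatum and hypothalamus, 45.4% were higher in the dorsal striatum with TMM and 19.3% with library size alone. Between dorsal and ventral striatum these shares were 50.3% and 25.1%, between ventral striatum and hypothalamus 45.2% and 20.6%, between motor cortex and hypothalamus 47.4% and 25.6%, and between dorsal striatum and motor cortex 49.4% and 34.9%.

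**Figure D1:**
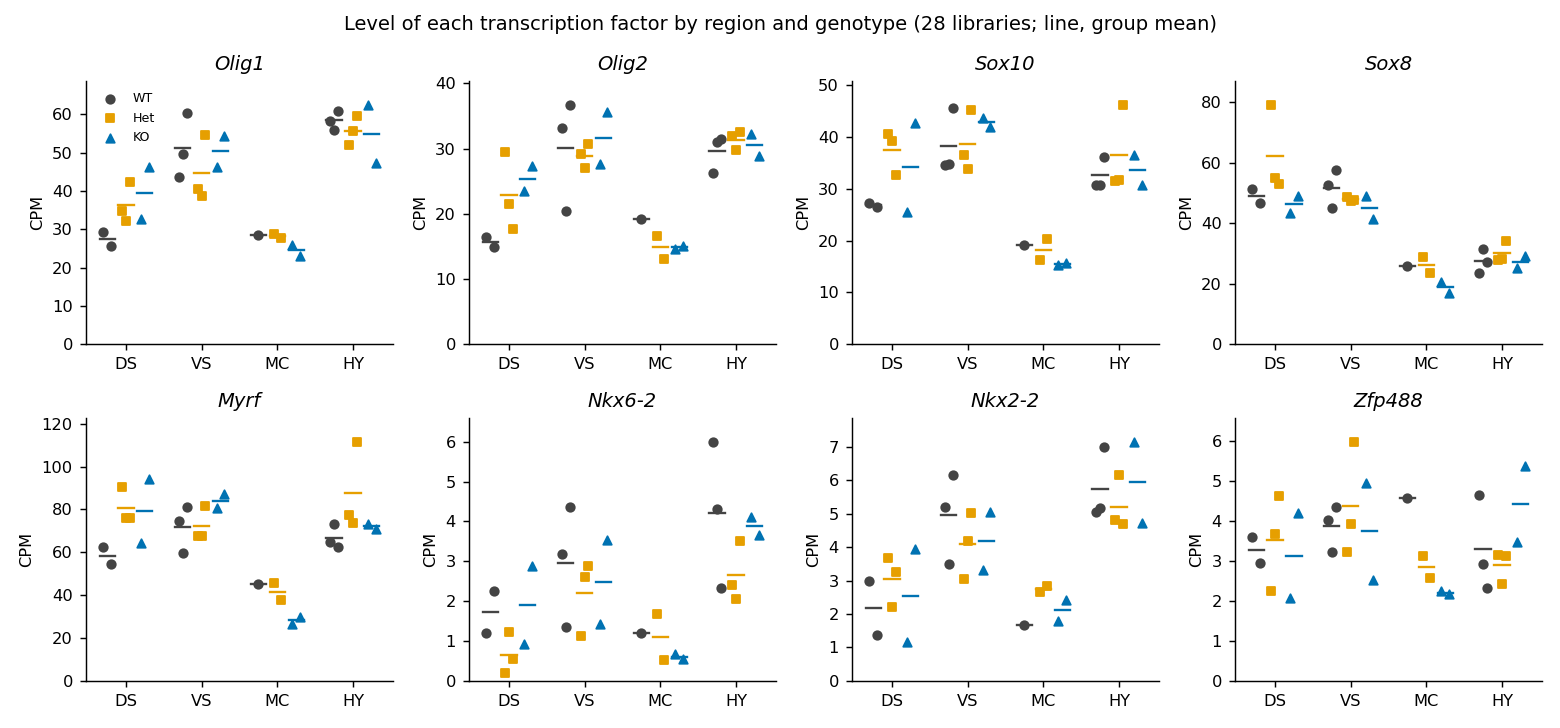
Levels of the 8 genes in the 28 libraries, in CPM on axes that start at 0, by brain region (DS, dorsal striatum; VS, ventral striatum; MC, motor cortex; HY, hypothalamus). Each point is 1 library, marked by genotype, and each line the mean of a genotype. *Sox8* ran from 43.5 to 79.1 CPM in the dorsal striatum and from 23.4 to 34.1 CPM in the hypothalamus, while *Olig1* ran from 25.6 to 46.2 CPM and from 47.3 to 62.4 CPM.

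Means and SDs in this account of regions are over libraries of all genotypes. *Olig1* had its highest mean in the hypothalamus, where the 8 libraries ran from 47.3 CPM through a median of 57.1 CPM to 62.4 CPM. In the ventral striatum it ran from 38.8 through 47.9 to 60.3 CPM, and in the dorsal striatum from 25.6 through 32.7 to 46.2 CPM. Its motor cortex level was 28.4 CPM in the WT library, 28.7 and 27.8 CPM in the Het libraries and 26.0 and 23.0 CPM in the *Hdc*-KO libraries. All 5 motor cortex libraries were below all libraries of the ventral striatum and of the hypothalamus, while dorsal striatum and motor cortex overlapped. *Olig1* was lower in the dorsal than in the ventral striatum by 0.52 ± 0.10 (SE) on the log2 scale (edgeR adjusted p = 4.47e-06). The dorsal striatum was also below the hypothalamus, with a difference of -0.73 (edgeR adjusted p = 2.93e-12) and no overlap between libraries. Between dorsal striatum and motor cortex *Olig1* differed by 0.33 (edgeR adjusted p = 0.0229), and it was not called when libraries were scaled by their size alone (0.20, or 0.29 above the median of all genes). The neighbours at the top of the order, hypothalamus and ventral striatum, did not differ at the threshold (edgeR adjusted p = 0.0552).

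*Olig2* had the same order. Its mean level was 30.5 ± 2.11 CPM (SD, n = 8) in the hypothalamus and 30.1 ± 5.26 CPM (SD, n = 8) in the ventral striatum. The dorsal striatal mean was 21.6 ± 5.55 CPM (SD, n = 7) in the dorsal striatum. Motor cortex levels were 19.2 CPM in the WT library, 16.7 and 13.1 CPM in the Het libraries and 14.6 and 15.1 CPM in the *Hdc*-KO libraries. The motor cortex was below every library of the ventral striatum and hypothalamus. *Olig2* was lower in the dorsal than in the ventral striatum (log2 difference -0.53 ± 0.12 SE, edgeR adjusted p = 6.92e-05) and than in the hypothalamus (-0.54, edgeR adjusted p = 1.15e-05). It exceeded the motor cortex level in the dorsal striatum by 0.37 (edgeR adjusted p = 0.028), and was not called with library size alone (0.25, or 0.34 above the median of all genes). Ventral striatum and hypothalamus did not differ beyond their spread (edgeR adjusted p = 0.932).

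*Sox10*, the SoxE factor that with OLIG2 turns on *Myrf*, separated the motor cortex from the rest. Its motor cortex level was 19.2 CPM in the WT library, 16.2 and 20.3 CPM in the Het libraries and 15.2 and 15.7 CPM in the *Hdc*-KO libraries. It ran from 25.6 through 32.7 to 42.8 CPM in the dorsal striatum, from 33.8 through 39.3 to 45.7 CPM in the ventral striatum and from 30.7 through 31.6 to 46.2 CPM in the hypothalamus. No motor cortex library reached the lowest library of any other region. The log2 difference from the motor cortex was 0.89 for the dorsal striatum (edgeR adjusted p = 7.33e-09) and 1.18 for the ventral striatum (edgeR adjusted p = 6.52e-16). The motor cortex was below the hypothalamus by 0.96 (log2 difference -0.96, edgeR adjusted p = 5.74e-11). *Sox10* was lower in the dorsal than in the ventral striatum (-0.295 ± 0.115 SE, edgeR adjusted p = 0.0382), with libraries overlapping, and DESeq2 did not call it (-0.29). With library size alone it was called lower in the dorsal striatum than in the hypothalamus (-0.44, edgeR adjusted p = 0.000842), beside an all-gene median of -0.41. Between ventral striatum and hypothalamus *Sox10* differed by 0.22 (edgeR unadjusted p = 0.0405, adjusted p = 0.0845), with libraries overlapping. With library size alone that difference was 0.009, beside an all-gene median of -0.24.

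*Myrf*, the factor closest to the myelin genes in the pathway, had similar means in 3 regions with TMM scaling. Its means were 74.0 ± 14.8 CPM (SD, n = 7) in the dorsal striatum, 75.1 ± 9.37 CPM (SD, n = 8) in the ventral striatum and 76.0 ± 15.3 CPM (SD, n = 8) in the hypothalamus. None of these 3 pairs was called, with unadjusted edgeR p-values of 0.459, 0.554 and 0.873. With library size alone *Myrf* was called lower in the dorsal striatum than in the hypothalamus (-0.42, edgeR adjusted p = 0.000212), where the median of all genes was -0.41 and 67.2% of them were called. Motor cortex *Myrf* stood at 45.4 CPM in the WT library, 45.6 and 37.6 CPM in the Het libraries and 26.4 and 30.0 CPM in the *Hdc*-KO libraries. All of these were below the lowest library of each other region, which was 54.4 CPM. The motor cortex level was lower by 0.94 than the dorsal striatum (edgeR adjusted p = 8.48e-13), by 1.01 than the ventral striatum (edgeR adjusted p = 2.23e-15) and by 1.00 than the hypothalamus (edgeR adjusted p = 3.61e-15), all as log2 differences.

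*Sox8*, the other SoxE factor, had an order of its own, with both striatal regions above the hypothalamus. It ran from 43.5 through 51.3 to 79.1 CPM in the dorsal striatum and from 41.2 through 48.1 to 57.5 CPM in the ventral striatum. In the hypothalamus it ran from 23.4 through 28.0 to 34.1 CPM. Its motor cortex level was 26.0 CPM in the WT library, 29.0 and 23.4 CPM in the Het libraries and 20.6 and 17.0 CPM in the *Hdc*-KO libraries. Every striatal library was above every library of the motor cortex and hypothalamus. The dorsal striatal level of *Sox8* was 2.22-fold that of the motor cortex (log2 difference 1.15 ± 0.12 SE, edgeR adjusted p = 2.23e-19). It was 1.85-fold that of the hypothalamus (0.89 ± 0.10 SE, edgeR adjusted p = 9.94e-18). In the ventral striatum it was higher than in the motor cortex by 1.04 (edgeR adjusted p = 1.8e-16) and than in the hypothalamus by 0.77 (edgeR adjusted p = 3.9e-14). Dorsal and ventral striatum did not differ at the threshold (edgeR adjusted p = 0.436), nor did motor cortex and hypothalamus (edgeR adjusted p = 0.061).

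The 3 remaining members were near 1 to 6 CPM, which at this depth is few reads. *Nkx2-2* had 5 to 39 counts per library, *Zfp488* 8 to 25 and *Nkx6-2* 1 to 31. The homeodomain genes followed *Olig1*. *Nkx2-2* ran from 4.68 through 5.10 to 7.15 CPM in the hypothalamus, from 3.03 through 4.61 to 6.16 CPM in the ventral striatum and from 1.15 through 3.00 to 3.94 CPM in the dorsal striatum. Its motor cortex mean was 2.28 ± 0.515 CPM (SD, n = 5). The dorsal striatal libraries were all below the hypothalamic ones, with a log2 difference of -1.155 (edgeR adjusted p = 5.76e-07). *Nkx2-2* was also lower in the dorsal than in the ventral striatum (-0.79 ± 0.24 SE, edgeR adjusted p = 0.0043) and higher in the ventral striatum than in the motor cortex (1.03, edgeR adjusted p = 0.00088). With choroid plexus level as a covariate the latter was 0.67 and not called. Between motor cortex and hypothalamus the difference was -1.39 (edgeR adjusted p = 5.62e-07), again without overlap.

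*Nkx6-2* averaged 3.55 ± 1.31 CPM (SD, n = 8) in the hypothalamus and 2.56 ± 1.16 CPM (SD, n = 8) in the ventral striatum. Its dorsal striatal mean was 1.32 ± 0.947 CPM (SD, n = 7) and its motor cortex mean 0.924 ± 0.510 CPM (SD, n = 5). The spread was wide, and only motor cortex and hypothalamus did not overlap (log2 difference -1.87, edgeR adjusted p = 2.21e-05). The dorsal striatum was below the hypothalamus (-1.43, edgeR adjusted p = 7.5e-05) and the ventral striatum (-0.95 ± 0.37 SE, edgeR adjusted p = 0.0312), and the latter call was lost with edgeR's quasi-likelihood test and with DESeq2. The ventral striatum was above the motor cortex by 1.39 (edgeR adjusted p = 0.0039). *Zfp488* averaged 2.94 to 4.03 CPM in the 4 regions, its libraries overlapped in every pair, and the smallest unadjusted edgeR p-value was 0.153.

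Per kilobase of exon, the order of the members also depended on the region. In the dorsal striatum the mean level was 17.3 CPM per kb for *Sox8*, 16.0 for *Olig1*, 11.0 for *Sox10*, 8.64 for *Myrf* and 8.53 for *Olig2*. *Nkx2-2*, *Zfp488* and *Nkx6-2* were at 0.924, 0.776 and 0.693 CPM per kb. In the hypothalamus *Olig1* led with 26.1 CPM per kb, followed by *Olig2* with 12.1, *Sox10* with 11.2, *Sox8* with 9.09 and *Myrf* with 8.88. Library preparation that favours parts of a transcript may shift levels between genes, and its part in this order was not tested.

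The 2 SoxE genes were also compared as a ratio within each library, which does not depend on how libraries are scaled. Counts were not divided by exon length, so a ratio is compared between regions, and its place above or below 1 is not read. The ratio of *Sox8* to *Sox10* counts ran from 1.15 through 1.70 to 1.95 in the 7 dorsal striatal libraries. In the hypothalamus it ran from 0.687 through 0.822 to 1.02, and these ranges did not overlap. In the ventral striatum it ran from 0.982 through 1.28 to 1.52, and in the motor cortex from 1.09 through 1.35 to 1.79. On the log2 scale, with 0.5 added to each count, the dorsal striatum was 0.96 above the hypothalamus (exact two-sided permutation test, p = 0.000155, adjusted p = 0.0028 over 18 ratio tests). The ventral striatum was 0.57 above it (exact permutation p = 0.000311, adjusted p = 0.0028) and the motor cortex 0.67 (exact permutation p = 0.000777, adjusted p = 0.00466). Dorsal and ventral striatum differed by 0.39, which did not pass after adjustment (exact permutation p = 0.0113, adjusted p = 0.051). The dorsal striatum and the motor cortex differed by 0.28 (exact permutation p = 0.109, adjusted p = 0.326), and the ventral striatum and the motor cortex by -0.10 (exact permutation p = 0.465, adjusted p = 0.699). These permutations treat libraries as independent, and they were run after the levels had been seen.

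**Figure D2:**
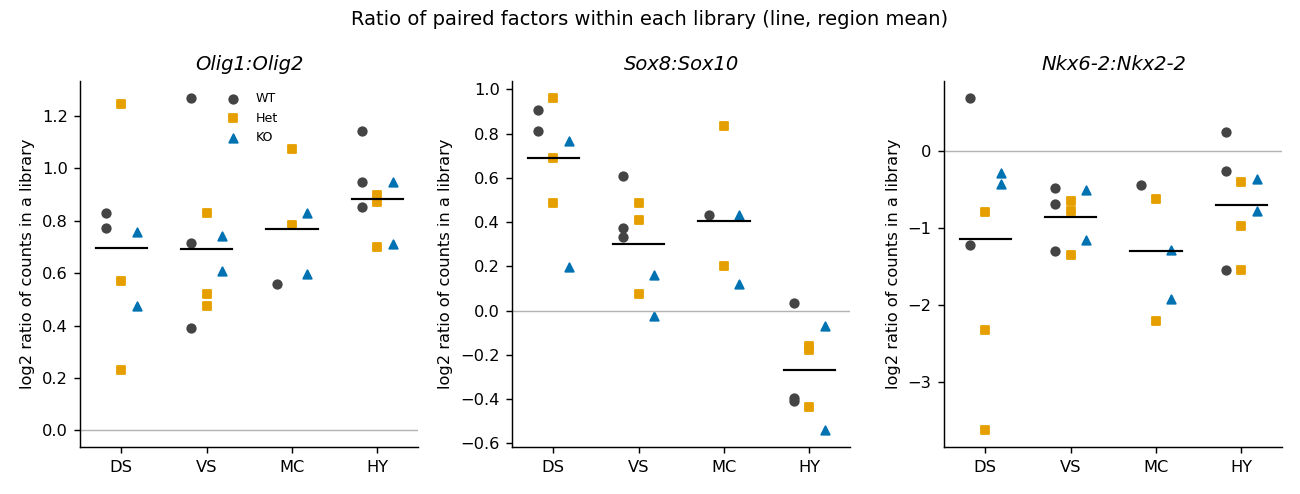
Log2 ratio of counts within a library for 3 pairs of related genes, by brain region (DS, dorsal striatum; VS, ventral striatum; MC, motor cortex; HY, hypothalamus), with 0.5 added to each count. Each point is 1 library, marked by genotype, and each line a region mean. The means for *Sox8* to *Sox10* were 0.69 in the dorsal striatum and -0.27 in the hypothalamus, whose points do not overlap.

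The neighbouring genes *Olig1* and *Olig2* had a ratio that did not differ beyond its spread in any pair of regions. Its median was 1.69 in dorsal striatum, 1.58 in ventral striatum, 1.72 in motor cortex and 1.85 in hypothalamus. The smallest exact permutation p-value of the 6 pairs was 0.104. The ratio of *Nkx6-2* to *Nkx2-2* had a median of 0.579 in dorsal striatum, 0.602 in ventral striatum, 0.412 in motor cortex and 0.669 in hypothalamus. Its smallest exact permutation p-value was 0.158, on few counts.

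The study asked how the transcriptome of these regions differs between genotypes. In the dorsal striatum 3 of the 8 members (*Olig1*, *Olig2* and *Myrf*) were at a higher level in both *Hdc*-KO libraries than in both WT libraries, and none was called after adjustment. By edgeR's likelihood ratio test 0 of 8 were called, against 0.387% of all genes, and the quasi-likelihood test and DESeq2 also called 0. At an unadjusted p-value of 0.05 or less, 3 members were higher, against 5.27% of all genes, and 0 were lower, against 2.67%. A share of 18.8% of all genes had every *Hdc*-KO library above every WT library, which with 2 libraries against 2 is common. The median difference of the 8 members was 0.29, against -0.003 over all genes tested, with 6 of 8 above zero.

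*Olig2* stood at 16.5 and 15.0 CPM in the WT libraries, 29.6, 21.6 and 17.7 CPM in the Het libraries and 23.5 and 27.3 CPM in the *Hdc*-KO libraries. Both WT libraries were the lowest of the 7, and Het and *Hdc*-KO overlapped. The *Hdc*-KO to WT difference was 0.69 ± 0.24 (SE) on the log2 scale, with an edgeR unadjusted p of 0.00346 and an adjusted p of 0.229. *Olig1* stood at 29.4 and 25.6 CPM in the WT libraries, 34.7, 32.1 and 42.2 CPM in the Het libraries and 32.7 and 46.2 CPM in the *Hdc*-KO libraries. Again the WT libraries were the lowest, and the difference was 0.52 ± 0.20 (edgeR adjusted p = 0.389). *Myrf* stood at 62.4 and 54.4 CPM in the WT libraries, 90.7, 76.0 and 76.0 CPM in the Het libraries and 64.2 and 94.2 CPM in the *Hdc*-KO libraries. Its *Hdc*-KO library 7 was only just above the higher WT library, and the difference was 0.44 ± 0.20 (edgeR adjusted p = 0.512).

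The SoxE genes and the weakly expressed members did not separate the *Hdc*-KO from the WT libraries. *Sox10* was 27.3 and 26.5 CPM in WT, 40.6, 39.2 and 32.7 CPM in Het and 25.6 and 42.8 CPM in *Hdc*-KO libraries, so that the 2 *Hdc*-KO libraries lay on either side of WT. *Sox8* was 51.3 and 46.7 CPM in WT, 79.1, 54.9 and 52.8 CPM in Het and 43.5 and 49.1 CPM in *Hdc*-KO libraries. Its *Hdc*-KO to WT difference was -0.08 ± 0.19 (edgeR adjusted p = 0.959). Differences of the other 3 were 0.24 for *Nkx2-2*, 0.07 for *Nkx6-2* and -0.07 for *Zfp488*, each smaller than its SE, and their libraries overlapped.

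**Figure D3:**
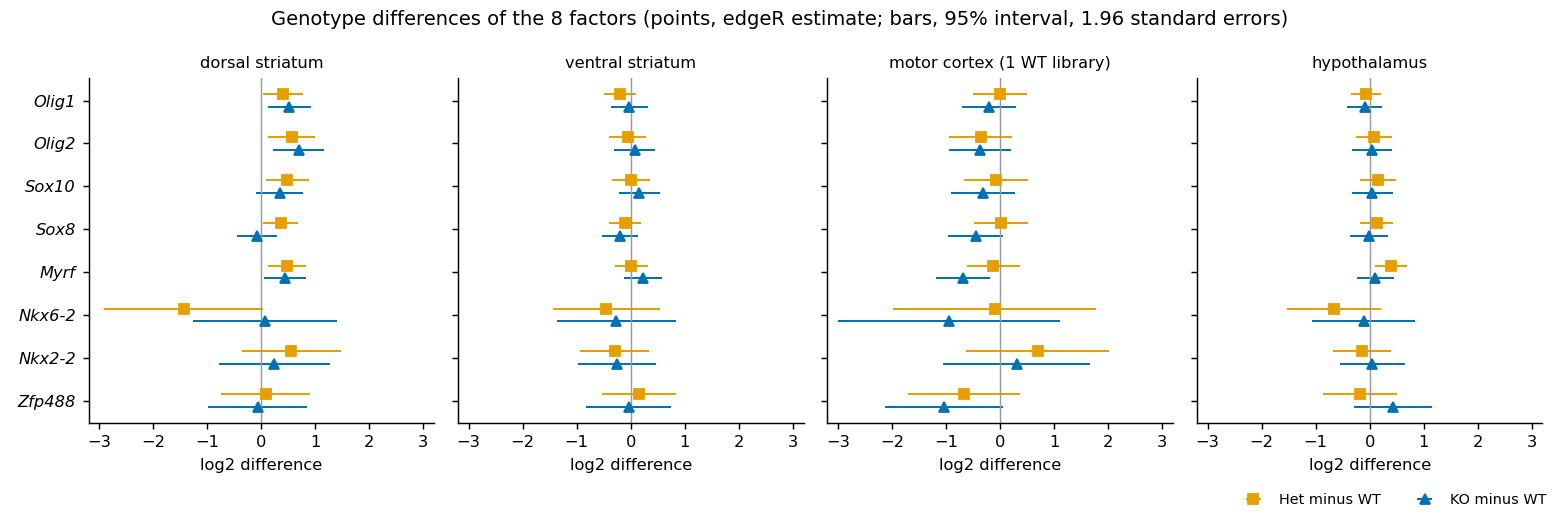
Log2 differences of *Hdc*-KO and Het from WT for the 8 genes in each region, as edgeR estimates with 95% intervals from their standard errors. In the dorsal striatum *Olig2* lies at 0.69 for *Hdc*-KO and 0.565 for Het, and *Sox8* at -0.08 and 0.36.

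The libraries with markers of other tissue enter these values. *Hdc*-KO library 8, with the choroid plexus sum of 2930 CPM, had the highest *Olig1*, *Myrf* and *Sox10* of the 7 libraries. Without it the differences of *Olig2*, *Olig1* and *Myrf* were 0.58, 0.26 and 0.14. Without *Hdc*-KO library 7, which had the highest cortical neuron sum, they were 0.80, 0.75 and 0.69, and that of *Sox10* was 0.67. Each of these fits left 1 *Hdc*-KO library. Without WT library 2 the difference of *Olig2* was 0.62. With choroid plexus level as a covariate it was also 0.62, and *Olig2* was the only member higher at an unadjusted p of 0.05 or less. The share of all genes at that p was not computed for fits with a covariate or with a library left out. WT library 1 had the lowest TMM factor, 0.734. With library size alone, the median of all genes moved to 0.28, and 3.33% of all genes were called, 499 higher and 0 lower. *Olig1*, *Olig2* and *Myrf* were among them, at 0.81, 0.98 and 0.73 (edgeR adjusted p = 0.0203, 0.0181 and 0.0254 for the difference from zero). Relative to the median they were at 0.53, 0.70 and 0.46, which was not tested. Beyond these values, the part of other tissue in the differences was not tested.

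Het libraries of the dorsal striatum were also compared with WT, and this comparison shares its 2 WT libraries with the one above. No member was called (0.0868% of all genes), and 5 were higher at an unadjusted p of 0.05 or less, against 4.87% of all genes. All 5 had every Het library above both WT libraries, as had 11.3% of all genes, and 1 member was lower before adjustment, as were 3.08%. The log2 differences were 0.565 ± 0.221 (SE) for *Olig2* (edgeR adjusted p = 0.443), 0.48 for *Sox10* (0.496), 0.48 for *Myrf* (0.428), 0.40 for *Olig1* (0.564) and 0.36 for *Sox8* (0.577), with edgeR adjusted p-values in parentheses. *Nkx2-2* was at 0.56 and *Zfp488* at 0.08, with overlap. *Nkx6-2* was lower in Het at an unadjusted p of 0.05 or less (-1.44 ± 0.75 SE, edgeR adjusted p = 0.609), on 1, 5 and 2 counts in Het against 4 and 10 in WT, and its libraries overlapped. Het library 4, which had the highest *Sox8* and *Olig2*, had 52.6 CPM over 10 ependymal genes, against 5.88 to 20.2 CPM in the other dorsal striatal libraries. Without it 2 of the 5 differences kept an unadjusted p of 0.05 or less, *Olig1* and *Myrf*, and without WT library 2 none did.

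Between *Hdc*-KO and Het in the dorsal striatum 0 members were called (0.461% of all genes). *Sox8* was lower in both *Hdc*-KO libraries than in the 3 Het libraries, as were 10.5% of all genes, with a difference of -0.44 ± 0.17 (SE) and an edgeR adjusted p of 0.432. *Nkx6-2* was at 1.51 (edgeR adjusted p = 0.614), on 4 and 11 counts in the *Hdc*-KO libraries. Without Het library 4 the *Sox8* difference was -0.22.

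In the ventral striatum no member differed between genotypes even before adjustment. The *Hdc*-KO to WT differences ran from -0.27 to 0.23, and the smallest unadjusted edgeR p was 0.194 (0.0801% of all genes called). The Het to WT differences ran from -0.46 to 0.16 (0.0534% called), and those of *Hdc*-KO and Het from -0.20 to 0.22 (0.0467% called). *Olig2*, for example, was 33.2, 20.5 and 36.7 CPM in WT, 29.2, 27.0 and 30.7 CPM in Het and 27.7 and 35.7 CPM in *Hdc*-KO libraries.

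In the motor cortex, where WT was a single library, 7 of 8 members were below WT in both *Hdc*-KO libraries. With 1 WT library, 33.7% of all genes showed this. None was called (0.0334% of all genes), and *Myrf* alone was lower at an unadjusted p of 0.05 or less, as were 2.11% of all genes. Its level was 45.4 CPM in WT, 45.6 and 37.6 CPM in Het and 26.4 and 30.0 CPM in *Hdc*-KO libraries, so that the *Hdc*-KO libraries were the lowest of the 5. The difference was -0.69 ± 0.26 (SE) from WT (edgeR adjusted p = 0.907) and -0.56 ± 0.21 from Het (edgeR adjusted p = 0.907). In a fit of the motor cortex libraries alone the WT comparison had the same size (-0.69) and an edgeR adjusted p of 0.0486, with 0.401% of all genes called, and it too rests on 1 WT library. *Sox8* was lower than in Het by 0.47 (log2 difference -0.47, edgeR adjusted p = 1). All 8 members had an *Hdc*-KO to Het difference below zero, from -0.84 to -0.01, where the median of all genes was 0.000. Both *Hdc*-KO libraries were below both Het libraries for 6 members, against 16.7% of all genes. After adjustment 0 members were called (0.00668% of all genes). Het to WT differences ran from -0.67 to 0.70, with 0 called (0.0134%).

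In the hypothalamus the *Hdc*-KO to WT differences ran from -0.11 to 0.43 (0 called, 0.167% of all genes), and the *Hdc*-KO to Het differences from -0.28 to 0.61 (0 called, 0.234%). Without *Hdc*-KO library 8, which had the highest cortical neuron sum, they ran from -0.13 to 0.32 and from -0.26 to 0.63. *Myrf* was 64.9, 73.3 and 62.4 CPM in WT and 77.6, 73.9 and 112 CPM in Het libraries, with the 2 groups just apart, as in 6.04% of all genes. The Het to WT difference was 0.39 ± 0.15 (SE, edgeR adjusted p = 0.749; 0 called, 0.0935% of all genes), and it was 0.18 without Het library 6.

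Whether the *Hdc*-KO to WT difference itself differed between regions was tested as an interaction, the dorsal striatal difference minus that of another region. None of the 24 interactions was called. Against the motor cortex, *Myrf* had an interaction of 1.13 ± 0.32 (SE), an edgeR unadjusted p of 0.00041 and an adjusted p of 0.146, where 0.127% of all genes were called. *Olig2* was at 1.07 (edgeR adjusted p = 0.497) and *Olig1* at 0.73 (edgeR adjusted p = 0.832). This comparison rests on 1 WT library in the motor cortex, and without *Hdc*-KO library 7 of the dorsal striatum *Myrf* was called (1.38, edgeR adjusted p = 0.0168). Against the ventral striatum *Olig1* was at 0.55 and *Olig2* at 0.62 (edgeR adjusted p = 1.0 for both, 0.00668% of all genes called). Against the hypothalamus they were at 0.61 and 0.65 (edgeR adjusted p = 0.605 and 0.692, 0.154% called), and without *Hdc*-KO library 8 of the hypothalamus no member had an unadjusted edgeR p under 0.0957.

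Other genes of the same pathway were read from lists beside the members. Of 14 other positive regulators and chromatin partners, 0 were called in the dorsal striatum between *Hdc*-KO and WT (0.387% of all genes). Their median difference was -0.02. At an unadjusted p of 0.05 or less 3 were higher and 0 lower, against 5.27% and 2.67% of all genes. Chosen for these values, they were *St18* (0.74, edgeR adjusted p = 0.389), *Zeb2* (0.51, 0.243) and *Zfp536* (0.495, 0.545), all zinc finger factors. *Zeb2* is known to relieve inhibition of myelination. *St18* was at 0.96 in Het against WT (edgeR adjusted p = 0.121), beside *Tcf7l2*, a partner of Wnt signalling expressed in maturing oligodendrocytes, at 0.91 (edgeR adjusted p = 0.437). Of 8 inhibitors of differentiation 0 were called. Before adjustment 3 passed, which are named here after their values were seen, against 5.27% of all genes higher and 2.67% lower. The Notch target *Hes1* was at 1.55 (edgeR adjusted p = 0.324) and *Sox5* at 0.52 (edgeR adjusted p = 0.617), while *Hes5*, also a Notch target, was at -0.78 (edgeR adjusted p = 0.448). The median of these 8 was 0.25. Of 10 close relatives of the members 4 passed the filter on low counts, and none differed at an unadjusted p of 0.05 or less (median -0.20).

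Of 20 myelin genes, products of the pathway, 5 were called higher in *Hdc*-KO than in WT in the dorsal striatum (0.354% of all genes). At an unadjusted p of 0.05 or less 19 were higher, against 5.27% of all genes. The median of the 20 was 0.75, against 0.29 for the 8 factors. The difference between these medians was not tested. The 5 called genes were *Gjc3* (0.895), a gap junction protein, the iron carrier *Trf* (0.81), *Mobp* (0.76), *Cldn11* (0.73) and *Cnp* (0.72). Their edgeR adjusted p-values ran from 0.0187 to just under 0.05. Whether these calls hold with the quasi-likelihood test, with DESeq2 or with a library left out was not examined. Over all genes both of those tests called fewer genes, as given below. Other markers moved in the same comparison, with a median of 5.89 for choroid plexus genes, 1.51 for cortical neuron genes and -0.33 for spiny neuron genes, and their part in the result was not tested. Summed over the list, myelin genes were at 3755 and 3239 CPM in WT, 4933, 4633 and 4715 CPM in Het and 4875 and 6210 CPM in *Hdc*-KO libraries, the last in the library with 2930 CPM of choroid plexus genes. Of 9 precursor genes 0 were called or passed before adjustment (median 0.06), and their sums were 578.9 and 496.5 CPM in WT and 502.6 and 504.1 CPM in *Hdc*-KO libraries. Of 8 genes of newly formed oligodendrocytes 0 were called, and 3 were higher before adjustment, against 5.27% of all genes. These are named for that reason, with *Bcas1* at 0.69, *Enpp6* at 0.89 and *Tmem163* at 0.89 (median of the 8 genes 0.45). In the motor cortex the median *Hdc*-KO to WT difference of the 20 myelin genes was -0.61, beside -0.41 for the 8 factors. Both medians rest on 1 WT library, whose values all these genes share.

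Between regions, most myelin genes were called lower in the motor cortex than in each other region, as were *Olig1*, *Olig2*, *Myrf* and *Sox10*. For *Olig1* and *Olig2* the call against the dorsal striatum was lost with library size alone. Percentages give the share of all genes called in the same direction. Compared with the motor cortex, 19 of the 20 were called higher in the dorsal striatum (median 0.87, 21.4%) and 19 in the ventral striatum (median 0.975, 22.2%). In the motor cortex 19 were called lower than in the hypothalamus (median -0.915, 25.4%). Between dorsal striatum and hypothalamus 1 was called higher (25.5%) and 1 lower (30.7%), with a median of -0.06. Between ventral striatum and hypothalamus 3 were higher (19.7%) and 0 lower (23.9%), with a median of 0.08. Between dorsal and ventral striatum 2 were lower (14.4%) and 0 higher (14.6%), with a median of -0.175. Of 9 precursor genes 5 were lower and 1 higher in that comparison (median -0.35). The summed precursor genes had a median of 541.2 CPM in dorsal striatum and of 408 CPM in motor cortex. It was 602.6 CPM in both ventral striatum and hypothalamus.

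**Figure D4:**
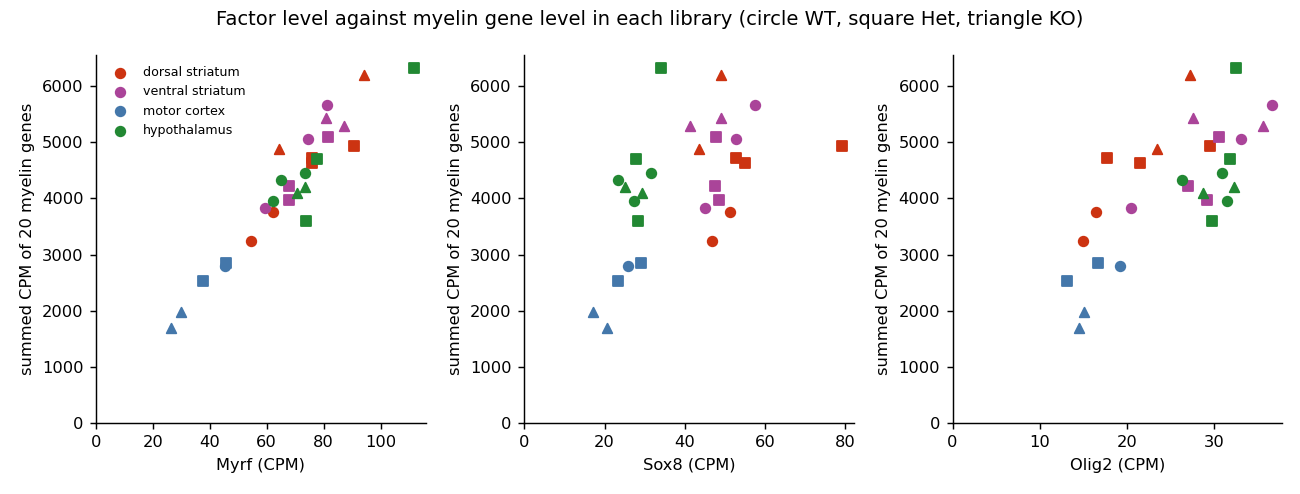
Summed level of 20 myelin genes (vertical axis, CPM) against the level of *Myrf*, *Sox8* or *Olig2* (horizontal axis, CPM) in the same library, for the 28 libraries, with colour for region and shape for genotype. The hypothalamic libraries have a *Sox8* of 23.4 to 34.1 CPM at a myelin sum of 3605 to 6333 CPM, and the motor cortex libraries 17.0 to 29.0 CPM at 1685 to 2857 CPM.

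The members varied together to different degrees over the 28 libraries, which share their region and the scaling of each library, and the correlations are descriptions. *Sox10* and *Myrf* had a Pearson's r of 0.918 in log2 CPM, which was 0.761 after the mean of each region was taken away. *Olig1* and *Olig2* had 0.849 and 0.455, and *Olig1* and *Nkx2-2* had 0.859 and 0.588. *Sox8* had 0.644 with *Sox10* and 0.63 with *Myrf*, and 0.097 with *Olig1* and -0.012 with *Nkx2-2*. Within regions these were 0.449, 0.621, 0.18 and 0.292.

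Among 9996 genes with a mean of at least 5 CPM, those most like *Myrf* included *Fa2h* (r = 0.949) and *Mbp* (0.945). *Mbp* encodes a structural protein of myelin, and *Fa2h* an enzyme of its lipids. Within regions those most like it included *Mbp* (0.885) and *Cldn11* (0.880), the claudin of myelin tight junctions. Genes most like *Sox10* included *St18* (0.923) and *Cnp* (0.909), and within regions *Sema6a* (0.735), *Slain1* (0.733) and *Aig1* (0.726). For *Olig1* the 3 were *Selenop* (0.950), *Ednrb* (0.940) and *Slc29a4* (0.929), and within regions *Cdc42ep1* (0.816), *Bloc1s5* (0.770) and *Cd164* (0.761). For *Olig2* they were *March8* (0.901), *Arhgef10* (0.895) and *Efhd1* (0.889), and within regions *Cntn2* (0.794), *Sema6a* (0.788) and *Arhgef10* (0.786).

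*Sox8* was most like *Foxp2* (0.938), a transcription factor of striatal neurons, *Anp32b* (0.934) and *Crybg3* (0.932). Within regions it was most like *Hepacam* (0.747), a glial adhesion molecule, *Kdm6b* (0.739) and *Dtd1* (0.698). None of these 6 was among the genes named for *Sox10*. No gene was named for both *Olig1* and *Olig2* either, while *Sema6a* was named for both *Olig2* and *Sox10*. Lists this short can easily share no gene, so they do not decide whether *Sox8* and *Sox10* differ in pattern. The weakly expressed members had lower values, with *Dock1* (0.877), *Adgrg1* (0.874) and *Fabp7* (0.865) for *Nkx2-2* and *Mmp15* (0.809), *Entpd2* (0.801) and *Limk2* (0.796) for *Nkx6-2*. *Zfp488* reached 0.663 with *Cyfip1*, 0.580 with *Aasdh* and 0.569 with *Pus3*.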

How the data were processed

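RNA-seq libraries were made by the authors from 5 ng of RNA with NuGEN Ovation RNA-Seq V2 and sequenced as single 50-base reads. The submitters' processing notes name Trimmomatic 0.32, Bowtie2 2.2.3, STAR 2.3.1z8, SAMtools 0.1.19, HTSeq 0.6.1p1 and GRCm38. The authors deposited raw counts per gene, unnormalized and unfiltered, and 44.78 to 54.22% of tallied reads were on genes. GENCODE M21 named 28842 of the 29878 genes.

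Genes above 1 CPM in at least 2 of 28 libraries were kept. Counts were fitted with edgeR 4.0.16 (R 4.3.3, limma 3.58.1; glmFit and glmLRT, TMM, 12 group means) and called at a Benjamini-Hochberg adjusted p under 0.05. edgeR's quasi-likelihood test is the alternative usual for counts, and DESeq2 1.42.0, other scalings, no filter, a choroid plexus covariate, a replicate block, fits of only the regions compared and leaving out each library were others. Log2 CPM used a prior count of 2. Genes of like pattern were the 3 with the highest r per member, of which some are not reported here. List genes named were those called between genotypes, and otherwise chosen after their values were seen. Differences named for single members were those called, those whose unadjusted p was at most 0.05, and all in the dorsal striatum against WT. Ratio tests used exact permutation. The fits were tested on simulated data.

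The members and lists were chosen with earlier results of these data known. Replicate numbers are digits of library names. Deviations from group means had a mean r of 0.007 in 34 same-numbered pairs and of -0.004 in 56 other pairs, with 0 over 0.1 in both. In groups of 2 libraries the deviations mirror each other, so pairs repeat. These values do not decide whether a number marks an animal. The marker lists for astrocytes, microglia and endothelium had medians of 0.04, 0.18 and 0.09 between *Hdc*-KO and WT in the dorsal striatum, and those for ependyma, Schwann cells, spiny neurons, cortical neurons, choroid plexus and hypothalamus 0.51, -0.64, -0.33, 1.51, 5.89 and 0.00. Of 21 pairs of replicates none agreed within sampling noise (chi-square over degrees of freedom 1.78 to 13.3).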

Additional observations from a re-analysis of the deposited data

How the results depend on the processing

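With 2 or 3 libraries in most groups, 1 in motor cortex WT and few reads for *Nkx6-2*, *Nkx2-2* and *Zfp488*, small differences could not be detected. The cause of each change below was not tested, and 2 alternatives, another pseudocount and left-out libraries for the ratios, were chosen after seeing the data. Shares of all genes called by the same fit stand in parentheses. With library size alone, the members called were 3 between *Hdc*-KO and WT in the dorsal striatum (3.33%), 3 between dorsal striatum and motor cortex (42.4%), 4 between ventral striatum and hypothalamus (52.2%) and 1 in the interaction with the motor cortex (0.381%), against 0, 5, 1 and 0. They were 7 between dorsal striatum and hypothalamus (67.2%) and 7 between motor cortex and hypothalamus (54.8%), against 5 and 6. *Sox8* and *Zfp488* then turned to 0.21 and 0.21 between *Hdc*-KO and WT in the dorsal striatum, which is below the all-gene median of 0.28. Hypothalamic means moved to 64.9 CPM for *Olig1*, 35.0 CPM for *Olig2* and 32.4 CPM for *Sox8*. With only the libraries of the regions compared, 1 member was called between *Hdc*-KO and the single WT library in the motor cortex (0.401%) and 2 between ventral striatum and hypothalamus (43.1%). DESeq2 called 3 members between dorsal and ventral striatum (23.8%). With choroid plexus level as a covariate 3 were called between dorsal striatum and motor cortex (41.5%), without *Olig1* and *Olig2*, and 2 between ventral striatum and hypothalamus (43.1%). *Nkx2-2* between ventral striatum and motor cortex was then not called (0.67). In the dorsal striatum that covariate turned *Sox10* to -0.031, *Nkx6-2* to -1.04 and *Nkx2-2* to -1.14 between *Hdc*-KO and WT, and *Zfp488* to -0.14 between Het and WT. The replicate block, for libraries that share only a number, called 2 members between ventral striatum and hypothalamus (43.5%), and it lost *Sox10* between dorsal and ventral striatum (-0.25, edgeR adjusted p = 0.0792) and *Olig2* between dorsal striatum and motor cortex (0.32, edgeR adjusted p = 0.0754). Over all genes, 58 were called between *Hdc*-KO and WT in the dorsal striatum, 12 by the quasi-likelihood test, 21 by DESeq2 and 499 with library size alone, and 11 to 151 when 1 dorsal striatal library was left out.

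Leaving out 1 library gave 2 to 5 members called between dorsal and ventral striatum (2 without *Hdc*-KO dorsal striatal library 7, and 3 without either WT library of the dorsal striatum or without WT library 3, Het library 6 or *Hdc*-KO library 8 of the ventral striatum), 3 to 5 between dorsal striatum and motor cortex (3 without *Hdc*-KO library 8 or WT library 1 of the dorsal striatum), 1 to 2 between ventral striatum and hypothalamus (2 without WT library 3, Het library 6 or *Hdc*-KO library 8 of either region or *Hdc*-KO library 7 of the hypothalamus) and 0 to 1 in the interaction with the motor cortex. All genes called ranged from 24.4 to 29.4%, 40.2 to 43.0%, 37.3 to 43.5% and 0.00668 to 0.294% in these fits. In the dorsal striatum the *Hdc*-KO to WT differences ran from -0.073 to 0.67 for *Sox10*, -0.17 to 0.006 for *Sox8*, -0.93 to 0.69 for *Nkx6-2*, -0.84 to 0.91 for *Nkx2-2* and -0.64 to 0.37 for *Zfp488*, and the Het to WT difference of *Zfp488* from -0.15 to 0.35. The *Sox8* to *Sox10* ratio between ventral striatum and motor cortex ran from -0.17 to 0.005. Of the differences not given singly, 43 of 786 values changed sign under other settings and 107 of 699 with a library left out, and 4 passed the threshold.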
